A study of Mus musculus with 5 samples.

Results

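The genes described here are 47 genes of the surface ectoderm and of epithelial cells, measured in embryonic mouse forelimbs at E11.5. They were picked by gene symbol from the array's annotation, with earlier results of these data known. Each gene was read from its brightest probe set (a group of short probes for 1 transcript), the one with the highest mean over the arrays. All 47 were measured, by 87 probe sets, among 18193 genes and 45037 tested probe sets in all. RNA came from 5 embryonic forelimb samples of the C57Bl/6 background: 2 were Sost-/-; Sostdc1-/- double mutants and 3 were wild type. The series description states that embryos were not pooled. Sost encodes sclerostin and Sostdc1 a related secreted protein, and both restrain Wnt signalling outside the cell. The comparison of double mutant with wild type asked, per the study's title, how the pair acts on digit number and Gli3.

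The limb bud at this stage is a core of mesenchyme covered by a thin sheet of ectoderm, with the apical ectodermal ridge along its distal rim. Ectodermal cells are held together by E-cadherin, desmosomes and tight junctions, and they rest on a basement membrane. The factor p63, made from Trp63, specifies the epidermal lineage. Wnt signals exchanged between ectoderm and mesenchyme, and FGFs from the ridge, drive outgrowth. Snail, Zeb and Twist factors are known to hold epithelial genes down in mesenchymal cells, in part through the E-box, the 6 letters CAGGTG or CACCTG on the other strand.

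Promoter windows of 300 bases were held for 25 of the 47 genes in RefSeq's GRCm38.p6 table (250 bases before the annotated start and 50 after it). At least 1 E-box lay in a window of 17 of these 25 genes (68.0%), against 22.6% of all 27025 genes in the table. Counted by window it was 17 of 29 (58.6%), against 20.2% of 32851. Members' windows had a median GC content of 60.7%, against 52.7% for all windows, and its part in the E-box share was not tested. The E-box was found in 3 of the 4 genes called higher in double mutants (Epcam, Cldn7 and Ap1m2, not Spint1) and in 14 of the 20 genes not called. The other 8 genes that rose had no window to search, and the shares were not tested against each other. An AP-2 motif (GCCNNNGGC, the same on both strands) lay in the windows of 8 of 25 genes (32.0%, against 18.5% of all genes). The Grainyhead motif AACNGGTT or AACCNGTT lay in 1 (4.0%, against 2.35%), and the ETS motif CCGGAAG or CTTCCGG in 2 (8.0%, against 9.93%). Each motif was searched separately, so that a stretch of sequence can count for more than 1 of them. A match describes the letters of a window, and no binding was measured here.

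The windows of the 4 genes called higher follow, to show how differently the E-box is placed among genes that rose. Each is the 250 bases before the annotated start, 5′ to 3′ on the gene's strand in GRCm38.p6, with E-boxes in capitals. Epcam lies at chr17:87635729-87635978 on the plus strand, the downstream of 2 annotated Cldn7 windows at chr11:69965171-69965420 on the plus strand, Ap1m2 at chr9:21312334-21312583 on the minus strand and Spint1 at chr2:119237110-119237359 on the plus strand.
Epcam: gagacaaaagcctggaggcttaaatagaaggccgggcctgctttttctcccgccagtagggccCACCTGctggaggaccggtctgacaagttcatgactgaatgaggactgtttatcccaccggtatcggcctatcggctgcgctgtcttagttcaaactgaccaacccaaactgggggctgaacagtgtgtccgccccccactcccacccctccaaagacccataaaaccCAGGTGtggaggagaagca
Cldn7: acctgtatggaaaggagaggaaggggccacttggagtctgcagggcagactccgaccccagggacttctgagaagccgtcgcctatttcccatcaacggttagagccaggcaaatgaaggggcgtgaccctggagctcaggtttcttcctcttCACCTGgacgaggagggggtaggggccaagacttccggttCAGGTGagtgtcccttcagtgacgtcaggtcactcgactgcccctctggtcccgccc
Ap1m2: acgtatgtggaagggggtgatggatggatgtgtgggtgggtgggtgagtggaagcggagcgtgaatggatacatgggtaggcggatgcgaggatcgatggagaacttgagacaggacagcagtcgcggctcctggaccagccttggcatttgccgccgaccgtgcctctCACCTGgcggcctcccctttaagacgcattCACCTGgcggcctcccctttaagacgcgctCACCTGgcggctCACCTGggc
Spint1: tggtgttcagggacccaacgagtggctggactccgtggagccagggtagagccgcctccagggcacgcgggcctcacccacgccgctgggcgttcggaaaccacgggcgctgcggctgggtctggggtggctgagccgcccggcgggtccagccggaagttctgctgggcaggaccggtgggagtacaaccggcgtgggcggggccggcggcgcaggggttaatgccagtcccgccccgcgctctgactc
Epcam held 2 E-boxes, whose leftmost bases lay 187 and 19 bases before the start. Cldn7 held 2, at 97 and 57 bases, and its upstream window (chr11:69964529-69964778, not printed) held 0. Ap1m2 held 4 within 81 bases of its start, at 81, 51, 21 and 9 bases. Spint1, the gene with the largest rise, held none in these 250 bases.

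The arrays had linear median intensities of 39.4 to 44.4. The poly-A spike-in Dap, a bacterial RNA added before labelling, stood at a mean log2 intensity of 7.09 in double mutants and 3.30 in wild type, so the groups also differed in preparation. Genotype and preparation cannot be told apart in any difference below. Xist and the Y-linked Eif2s3y were both high in each double mutant array (11.75 to 12.37, and 8.36), while each wild type array had only 1 of them high. Xist is made by female cells and Eif2s3y by male cells, so the double mutant values conflict with single embryos of 1 sex, and how many embryos each double mutant sample holds is not known. The spread between those 2 arrays may therefore not be that of single embryos. In 20 of the 47 genes (42.6%, against 49.4% of all genes) at least 2 arrays held the same value, which narrows their apparent spread. In whole limb buds, more ectodermal cells and more RNA per ectodermal cell cannot be told apart.

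Of the 47 genes, 12 rose in double mutants, 1 fell and 34 were not called at a limma adjusted p under 0.05. Higher calls thus covered 25.5% of the list, against 6.56% of all genes, and lower calls 2.13%, against 8.14%. Either direction was called for 14.7% of all genes by the brightest probe set and for 18.2% of all tested probe sets. The genes that rose were Spint1, Dsc2, Cldn7, Cdh1, Esrp2, Esrp1, Epcam, Dsg2, St14, Pkp1, Trp63 and Ap1m2, and Bcam fell. The median difference of the list, double mutant minus wild type, was 0.23 on the log2 scale, against −0.02 for all genes, and 33 of 47 differences were above 0. With equal array medians the list's median was 0.14, against −0.11 for all genes, and without wild type replicate 1 it was 0.15, against −0.03. Groups did not overlap in 28 genes (59.6%, against 43.2% of all genes), and in 22 of these the double mutants were higher (46.8% of the list, against 20.2%). The summed linear intensity of the 47 brightest probe sets was 15425 and 15563 in the double mutants and 11304 to 12822 in wild type. No gene of the list was called without double mutant replicate 1 or without wild type replicate 2, when limma called 0 probe sets on the array. At an unadjusted p under 0.05, limma gave 18 higher and 7 lower of the 47 without double mutant replicate 1 (38.3% and 14.9%, against 14.6% and 17.5% of all genes). Without wild type replicate 2 it gave 15 higher and 1 lower (31.9% and 2.13%, where 9.71% of all genes were higher and a larger share lower). Without double mutant replicate 2 the calls at an adjusted p under 0.05 were 6 higher and 2 lower, among them Cldn6 and Grhl1, which no fit of all 5 arrays called. A fit that leaves out 1 double mutant array sets a single array against wild type, so that its spread comes from the wild type arrays alone. Without wild type replicate 1 the counts were 5 and 0. With all arrays set to equal medians 9 were higher and 1 lower, and Trp63, Pkp1 and Ap1m2 lost their calls. The ectoderm markers Epcam, Cdh1 and Trp63, which are among the 47, stood above the median level of tested probe sets, as did all but 5 of the 47 genes on their brightest probe sets. This shows that they were measured, not which cells made them.

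**Figure D1:**
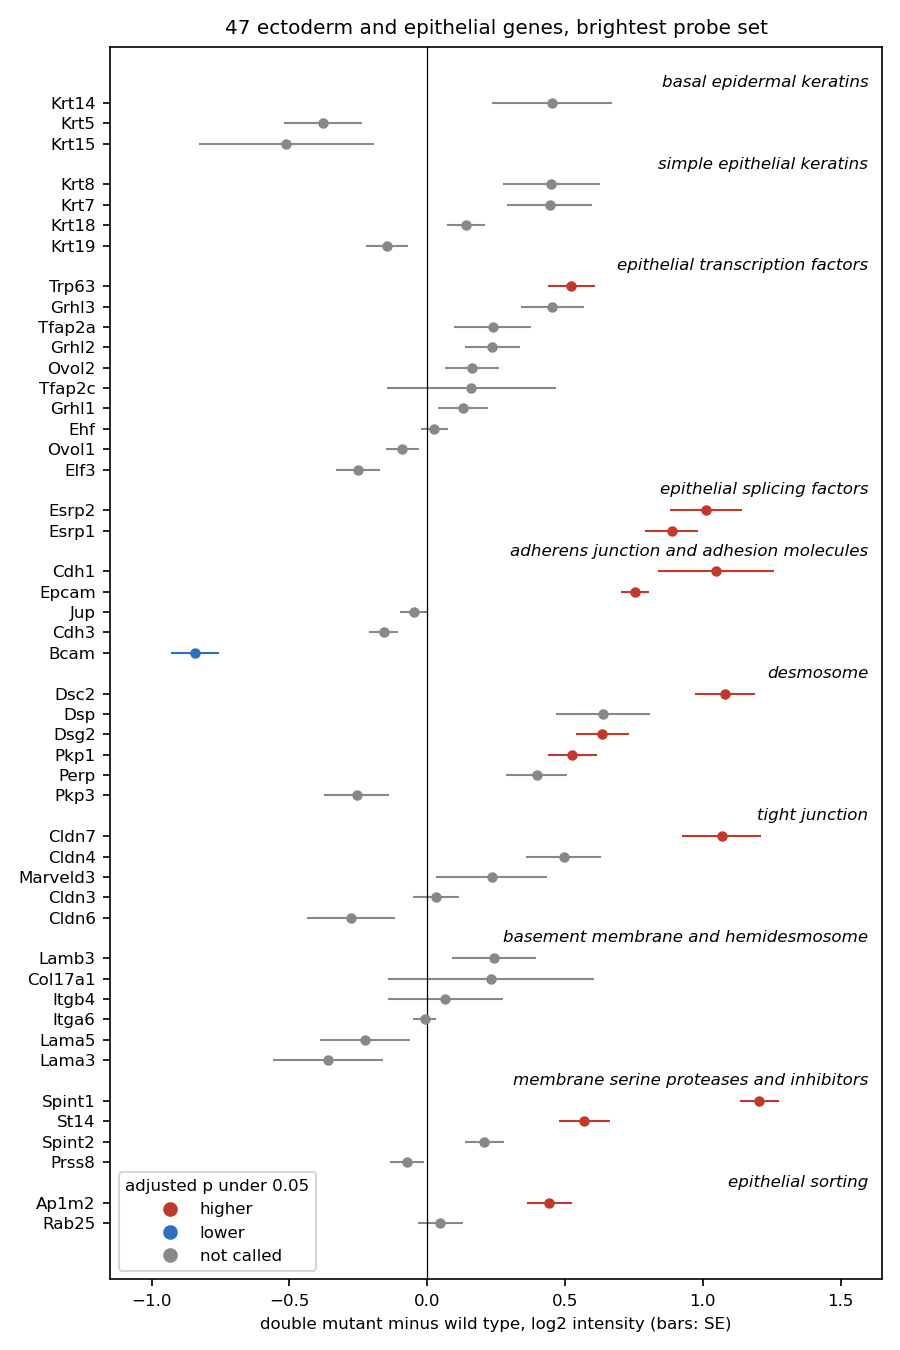
Difference between double mutant (n = 2) and wild type (n = 3) in log2 intensity for each of the 47 genes, by role; points are limma estimates on the brightest probe set and bars their SE. The 12 genes called higher lie between 0.44 and 1.20, and Bcam, the 1 gene called lower, lies at −0.84.

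Epcam, a homophilic adhesion molecule of epithelia, had log2 intensities of 10.34 and 10.41 in double mutants and 9.60, 9.66 and 9.60 in wild type. Replicates lay within 0.1 of each other and the groups did not overlap, with a difference of 0.76 ± 0.05 (SE, limma adjusted p = 0.00667). Cdh1, which encodes E-cadherin, the core of the adherens junction, stood at 8.85 and 9.50 in double mutants against 8.05, 8.15 and 8.19 in wild type. Both double mutants were higher, but they differed from each other far more than the wild type arrays did (1.05 ± 0.21, adjusted p = 0.0399). Without double mutant replicate 2 the Cdh1 difference was 0.73. Cdh3, or P-cadherin, the other classical cadherin of ectoderm, was not called: 8.97 and 8.87 against 9.07, 9.09 and 9.07 (−0.16 ± 0.05, adjusted p = 0.12). Jup, or plakoglobin, which links cadherins of adherens junctions and desmosomes to the cytoskeleton, stood at 6.52 in both double mutants and 6.52 to 6.60 in wild type.

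Bcam, a laminin receptor found on epithelia and also on red cells and vessels, was the gene that fell. Its values were 7.22 and 7.46 in double mutants against 8.20, 8.15 and 8.20 in wild type, so that it fell by 0.84 ± 0.09 (SE, limma adjusted p = 0.011). On their brightest probe sets, 5 of 10 endothelial markers fell and 0 rose, with a median of −0.45, and their summed intensity was 2242 to 2295 in double mutants and 3037 to 3244 in wild type. Egfl7, an endothelial secreted factor, was not called on its brightest probe set (0.10, adjusted p = 0.402) but was called higher on its 3 others, by 0.30, 0.67 and 0.55 (adjusted p of 0.0334, 0.013 and 0.0137). Of 6 measured erythroid markers 4 fell (66.7%, against the same 8.14%) and 0 rose. Their median was −0.75, with sums of 44671 to 49925 and 51047 to 54687. Pecam1 (−1.98 ± 0.13) and Alas2 (−1.89 ± 0.11) showed the largest falls in these lists. The part of blood and vessel cells in the Bcam value was not tested.

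Of 6 desmosome genes 3 were called higher and 0 lower on the brightest probe sets. Over all genes 6.56% were called higher and 8.14% lower. By share desmosomes did not stand out among the roles. Equal or larger shares were called higher among splicing factors (2 of 2), membrane proteases and inhibitors (2 of 4) and sorting genes (1 of 2). Another probe set was called lower for Dsc2 (−1.04), Dsg2 (−0.74), Dsp (−1.69) and Pkp3 (−0.53), as given further below. A further Dsg2 probe set was called higher (0.94), and Pkp1 and Perp had no other probe set. The directions of Dsc2, Dsg2 and Dsp are therefore not settled here. Dsc2, a desmosomal cadherin, stood at 7.92 and 8.21 in double mutants and 7.05, 6.90 and 7.00 in wild type (1.08 ± 0.11, adjusted p = 0.0106). Dsg2, its partner cadherin, stood at 9.27 and 9.44 against 8.83, 8.61 and 8.72 (0.63 ± 0.10, adjusted p = 0.0219). Pkp1, a plaque protein that clusters them, stood at 7.36 and 7.50 against 6.78, 6.97 and 6.97 (0.53 ± 0.09, adjusted p = 0.0284, and 0.0621 with equal array medians). For Dsc2, Dsg2 and Pkp1, both double mutants lay above all wild type arrays on the brightest probe set. Dsp, or desmoplakin, which anchors the plaque to keratin, was 10.73 and 10.75 against 9.83, 10.13 and 10.35, and its wide wild type spread left it without a call (0.64 ± 0.17, adjusted p = 0.0755, and 0.0447 with dim probe sets left out of the test). Perp, a tetraspan desmosome protein and p63 target, was also higher in both double mutants without a call (0.40 ± 0.11, adjusted p = 0.0833). Pkp3, another plaque protein, had a difference of −0.26 (adjusted p = 0.233).

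Of 5 tight junction genes 1 was called. Cldn7, a claudin that binds Epcam, stood at 8.03 and 8.42 in double mutants and 7.13, 7.08 and 7.26 in wild type (1.07 ± 0.14, adjusted p = 0.0167). The groups lay well apart. Cldn4 was higher in both double mutants, at 7.79 and 7.95 against 7.16, 7.53 and 7.44 (0.49 ± 0.14, adjusted p = 0.0817). Cldn6, the claudin of embryonic epithelia, stood at 7.32 and 7.81 against 7.86, 7.81 and 7.85, with 1 double mutant low and the other equal to a wild type array. Cldn3 (0.03) and Marveld3 (0.23), at adjusted p of 0.822 and 0.474, had overlapping groups.

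Both epithelial splicing regulators rose on their brightest probe sets. For Esrp2 another probe set was called lower by 1.02, as given further below, so its direction is not settled here. Esrp1 stood at 9.25 and 9.11 in double mutants and 8.18, 8.28 and 8.42 in wild type (0.89 ± 0.10, adjusted p = 0.0117). Esrp2 stood at 7.69 and 7.83 against 6.54, 6.87 and 6.84 (1.01 ± 0.13, adjusted p = 0.0157). These proteins impose the epithelial splice forms of Fgfr2, Cd44 and other transcripts, and the arrays do not resolve those forms here.

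Spint1, the membrane-bound inhibitor of matriptase also called Hai-1, showed the largest rise of the list. Its values were 7.76 and 7.94 in double mutants and 6.64, 6.64 and 6.66 in wild type, a 2.30-fold higher level and a log2 difference of 1.20 ± 0.07 (SE, limma adjusted p = 0.00622). St14, the matriptase it inhibits, rose too, from 6.30, 6.36 and 6.49 to 6.86 and 7.04 (0.57 ± 0.09, adjusted p = 0.0251). Protease and inhibitor were thus both higher in each double mutant array. Spint2, a related inhibitor, stood at 10.05 and 10.20 against 9.85, 9.94 and 9.94 (adjusted p = 0.131). Prss8, the protease prostasin that matriptase activates, held the same value of 6.04 in 4 arrays and 5.89 in the other (adjusted p = 0.465). Ap1m2, the epithelial clathrin adaptor subunit that sorts proteins to the basolateral membrane, rose from 7.32, 7.20 and 7.42 to 7.73 and 7.78 (0.44 ± 0.08, adjusted p = 0.0334, and 0.0888 with equal array medians). Rab25, an epithelial recycling GTPase, had a difference of 0.05 (adjusted p = 0.729).

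Among 10 epithelial transcription factors 1, Trp63, was called on its brightest probe set (10.0%, against 6.56% of all genes called higher). Other Trp63 probe sets were called in both directions, as given further below. Trp63 stood at 9.26 and 9.28 in double mutants and 8.65, 8.71 and 8.88 in wild type (0.52 ± 0.08, adjusted p = 0.0253, and 0.0555 with equal array medians). Both double mutants exceeded every wild type array by at least the wild type range. Grhl3, which drives epidermal barrier genes, was higher in both double mutants (7.11 and 7.24 against 6.55, 6.76 and 6.86) at an adjusted p of 0.0668, and of 0.0424 with dim probe sets left out. Grhl2, a direct activator of Cdh1 and claudin genes, had a difference of 0.24 ± 0.10 (adjusted p = 0.203), and Grhl1 of 0.13 (adjusted p = 0.39). Tfap2a, an AP-2 factor of ectoderm and neural crest, had 0.24 (adjusted p = 0.325). Tfap2c was the least even factor, at 6.85 and 7.81 in the double mutants, below and above the wild type range of 7.11 to 7.25. Elf3, an ETS factor of epithelia, stood at −0.25 (adjusted p = 0.11, and 0.0487 after quantile normalization). Ovol1 (−0.09), Ovol2 (0.16) and Ehf (0.03) lay below the median level of tested probe sets and were not called.

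Of 7 keratins, the filament proteins of epithelial cells, 0 were called, where 6.56% of all genes were called higher and 8.14% lower. The list is too short to tell 0 calls from those shares. A limma unadjusted p under 0.05 was reached by 1 (Krt7, higher), where 13.3% of all genes were higher and 15.3% lower. Krt5 and Krt14, which pair in basal epidermal cells, pointed opposite ways, at −0.38 ± 0.14 (adjusted p = 0.157) and 0.45 ± 0.22 (adjusted p = 0.249). Krt14 stood at 10.39 and 9.85 in double mutants and 9.43, 9.79 and 9.79 in wild type, so both lay above the wild type arrays, replicate 2 by less than the wild type range. Krt5 stood at 9.43 and 9.12 against 9.49, 9.67 and 9.79, below wild type in both. Krt15, also basal, stood at 8.58 and 7.79 against 8.34, 8.82 and 8.93. For the simple epithelial pair, Krt8 differed by 0.45 ± 0.18 (adjusted p = 0.175) and Krt18 by 0.14 ± 0.07 (adjusted p = 0.257). Krt7 stood at 0.44 ± 0.15 (adjusted p = 0.134) and Krt19 at −0.15 (adjusted p = 0.28). The brightest Krt14 probe set carries an ending for probes that may also match other transcripts, so a share of its signal may come from related keratins.

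Among genes of the basement membrane and hemidesmosome, which attach the ectoderm to the tissue below, none of 6 was called. None reached a limma unadjusted p under 0.05, and groups overlapped in all 6, where they did not overlap in 43.2% of all genes. This list is also too short to tell 0 calls from the shares over all genes. Itga6, the integrin subunit of hemidesmosomes, stood at 8.73 to 8.74 in double mutants and 8.74 to 8.76 in wild type. Itgb4, its partner, differed by 0.07 ± 0.21 (adjusted p = 0.853), and the hemidesmosomal collagen gene Col17a1 by 0.23 ± 0.37 (adjusted p = 0.705). The laminin chain genes Lama3 (−0.36), Lama5 (−0.23) and Lamb3 (0.24), at adjusted p of 0.305 to 0.401, were spread to either side of 0.

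**Figure D2:**
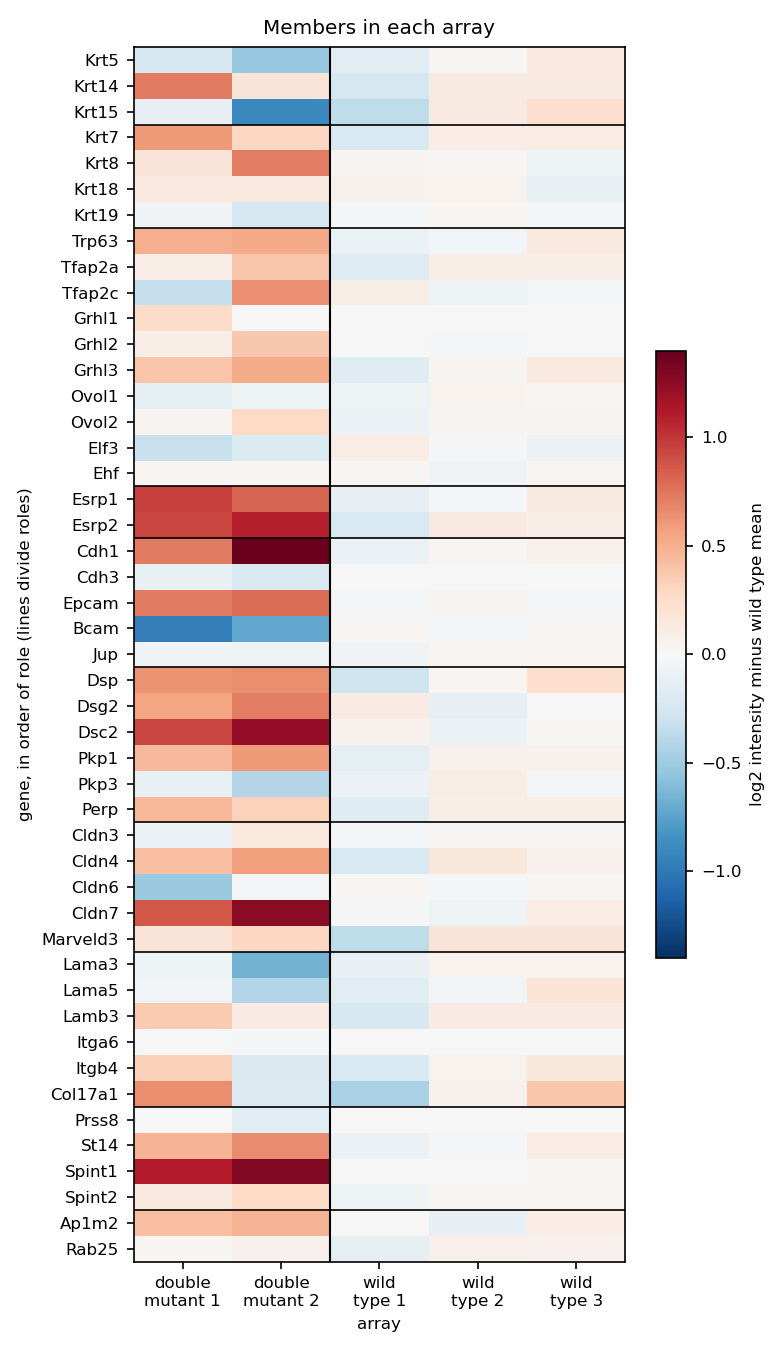
Log2 intensity of each gene in each of the 5 arrays, minus the mean of the 3 wild type arrays, with genes in order of role and lines between roles. Dsc2, Cldn7, Spint1, Esrp1 and Esrp2 are red in both double mutant arrays and near 0 in wild type, while the basal keratins and Col17a1 differ between the double mutant arrays themselves.

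Within some roles, the 2 double mutant arrays differed from each other in the same direction for most genes. This is 1 pair of arrays, and whether the differences follow role was not tested. All 3 basal keratins and all 6 basement membrane and hemidesmosome genes were higher in replicate 1, with median differences between the replicates of 0.54 and 0.45. Col17a1 stood at 7.18 and 6.34, Itgb4 at 5.79 and 5.26 and Lama3 at 5.82 and 5.22, while Itga6, at 8.74 and 8.73, hardly differed. In the wild type group the same 9 genes were lowest, ties included, in replicate 1, which holds for 10589 of all 18193 genes. Tight junction genes went the other way, with 5 of 5 higher in double mutant replicate 2, as were 8 of 10 transcription factors. Other roles were mixed. Of desmosome genes 2 were higher in replicate 1 and 4 in replicate 2, of simple epithelial keratins 3 and 1, and of membrane proteases and inhibitors 1 and 3. The double mutant replicates differed by more than 0.5 in 8 of 47 genes (17.0%), against 5.25% of all genes. Over all genes 8170 were higher in replicate 1 and 8337 in replicate 2. For these basal keratin and basement membrane roles the median difference between genotypes was −0.38 and 0.03.

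Several probe sets were present for 21 of the genes, which left 40 probe sets other than the brightest. Of these 2 were called higher (5.0%, against 8.66% of such probe sets over all genes) and 6 lower (15.0%, against 15.0%), so that lower calls were as frequent as over the array. A member called higher on its brightest probe set had another called lower in 4 of 5 cases (80.0%), against 163 of 716 genes (22.8%) over the array. These 4 were Trp63, Dsc2, Dsg2 and Esrp2, and the fifth gene, Epcam, had 0.25 on its other probe set (adjusted p = 0.3).

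For Dsc2, the dimmer 1421156_a_at stood at 5.11 and 5.29 in double mutants and 6.39, 6.26 and 6.07 in wild type (−1.04 ± 0.12, adjusted p = 0.0135), a fall close in size to the rise on the brightest. For Esrp2, 1419977_s_at stood at 5.25 and 5.33 against 6.19, 6.39 and 6.36 (−1.02 ± 0.08, adjusted p = 0.00799). Each of these genes was thus read as higher and as lower by non-overlapping groups of arrays. For Trp63, 1452027_a_at fell by 1.90 ± 0.36 (adjusted p = 0.0357), with 4.51 and 4.47 against 6.71, 6.72 and 5.72. The Trp63 probe set 1451876_a_at stood at −1.74 ± 0.42 (adjusted p = 0.0615), while 1459581_at rose by 0.90 ± 0.13 (adjusted p = 0.0185). Trp63 makes several isoforms from different promoters and 3′ ends, and which of them each probe set reads was not determined here. For Dsg2, 1449740_s_at rose by 0.94 ± 0.19 (adjusted p = 0.0396) and 1460380_at fell by 0.74 ± 0.16 (SE, adjusted p = 0.0497). Dsp fell on 1427610_at by 1.69 ± 0.28 (adjusted p = 0.0273) while 1435493_at stood at 0.52 (adjusted p = 0.176), and Pkp3 fell on 1418832_at by 0.53 ± 0.08 (adjusted p = 0.0194). Beside these values, the 3′ minus 5′ difference of the Gapdh control probe sets was 0.27 and 0.16 in double mutants and −0.14 to −0.06 in wild type, and that of Actb 0.65 and 0.56 against 0.20 to 0.68. Its part in the opposed calls was not tested probe set by probe set. With the mean of the 2 control differences as a covariate, limma called 0 of the 47 genes and 0 probe sets of the array. The list's median difference was 0.01 when read from the second brightest probe set (21 genes) and 0.04 by the mean of all probe sets of a gene.

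**Figure D3:**
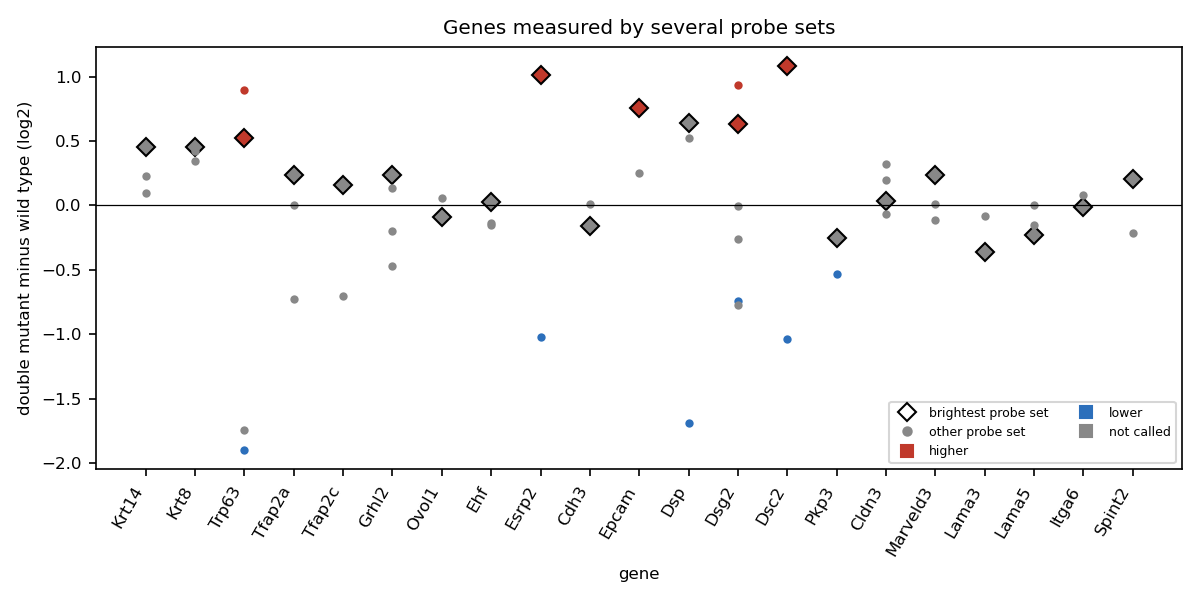
Log2 difference between double mutant and wild type for every probe set of the 21 genes that have several; diamonds mark the brightest and circles the others, coloured by the call at an adjusted p under 0.05. Dsc2 and Esrp2 each have a red diamond near 1 and a blue circle near −1, and Trp63 has calls on both sides of 0.

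Genes of lists outside the 47 were also read from their brightest probe sets. Of 23 further measured ectoderm and epidermis genes 2 rose and 0 fell, with a median of 0.02. Wnt6, a ligand made by ectoderm, stood at 8.84 and 8.52 in double mutants and 7.58, 7.84 and 7.97 in wild type (0.88 ± 0.16, adjusted p = 0.0347). Grip1, a scaffold that places Fras1 and Frem2 at the basement membrane, rose by 0.94 ± 0.19 (adjusted p = 0.0387). Of 24 further junction and polarity genes 1 rose and 2 fell, with a median of 0.07. Nectin4, an adherens junction molecule, rose by 0.59 ± 0.13 (adjusted p = 0.0484, and 0.072 with equal array medians). Ctnnd1, or p120 catenin, fell by 0.54 ± 0.07 (adjusted p = 0.0178) and Tjp1, or ZO-1, by 0.34 ± 0.07 (adjusted p = 0.0435), and mesenchyme also makes both of these. On their brightest probe sets, 0 of 15 further basement membrane genes rose and 2 fell, with a median of 0.04. Itgb1, the common integrin chain of most cells, fell by 1.13 ± 0.11 (adjusted p = 0.00937) and Nid2, a nidogen, by 0.70 ± 0.09 (adjusted p = 0.0164). Shares of higher calls in these lists stood near or below the 6.56% of all genes for all but the ectoderm list, at 8.70%. Lower calls made up 8.33% of the junction list and 13.3% of the basement membrane list, against 8.14% of all genes. Among other probe sets of the ectoderm list 1 of 18 was called higher and 1 lower. For the junction list 1 of 29 was higher (Ctnna1, 2.68) and 7 lower. For the basement membrane list 3 of 25 were higher and 7 lower, with Lamb1 called in both directions. Over all genes 8.66% of such probe sets were called higher and 15.0% lower. Levels in these lists are therefore not settled by their brightest probe sets.

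The ridge list gave 2 higher (16.7%, against 6.56% of all genes) and 0 lower of 12 measured genes. Its median was 0.23, the same to 2 decimals as that of the 47 genes. Fgf8, the ridge signal, stood at 7.69 and 8.34 in double mutants and 6.98, 6.62 and 6.59 in wild type (1.29 ± 0.25, adjusted p = 0.0364). Sp8, a ridge transcription factor, stood at 7.23 and 7.57 against 6.38, 6.27 and 6.50 (1.02 ± 0.14, adjusted p = 0.0167). Double mutant replicate 2 was higher than replicate 1 in 10 of the 12 ridge genes. Among the 47 genes this held for 27, with 18 the other way, and over all genes for 8337 of 18193.

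Of 6 genes for repressors of the epithelial state 2 fell (33.3%, against 8.14% of all genes) and 0 rose. None of the 6 differences was above 0, where 45.7% of all genes had one above 0. Snai1, the Snail repressor that binds E-boxes of the Cdh1 promoter, stood at 6.19 and 6.51 in double mutants against 8.23, 8.31 and 8.42 in wild type, so that it fell by 1.97 ± 0.12 (SE, limma adjusted p = 0.00648). The groups were far apart. Twist2 fell by 0.53 ± 0.09 (adjusted p = 0.0258). Snai2 (−0.31, adjusted p = 0.113), Twist1 (−0.26, adjusted p = 0.101), Zeb2 (−0.16, adjusted p = 0.817) and Zeb1 (−0.0047, adjusted p = 0.993) were not called. Among 8 other probe sets of these genes 1 was called, for Zeb2, which was higher there by 1.02 (adjusted p = 0.0127). Whether the Snai1 fall bears on the epithelial genes was not tested.

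**Figure D4:**
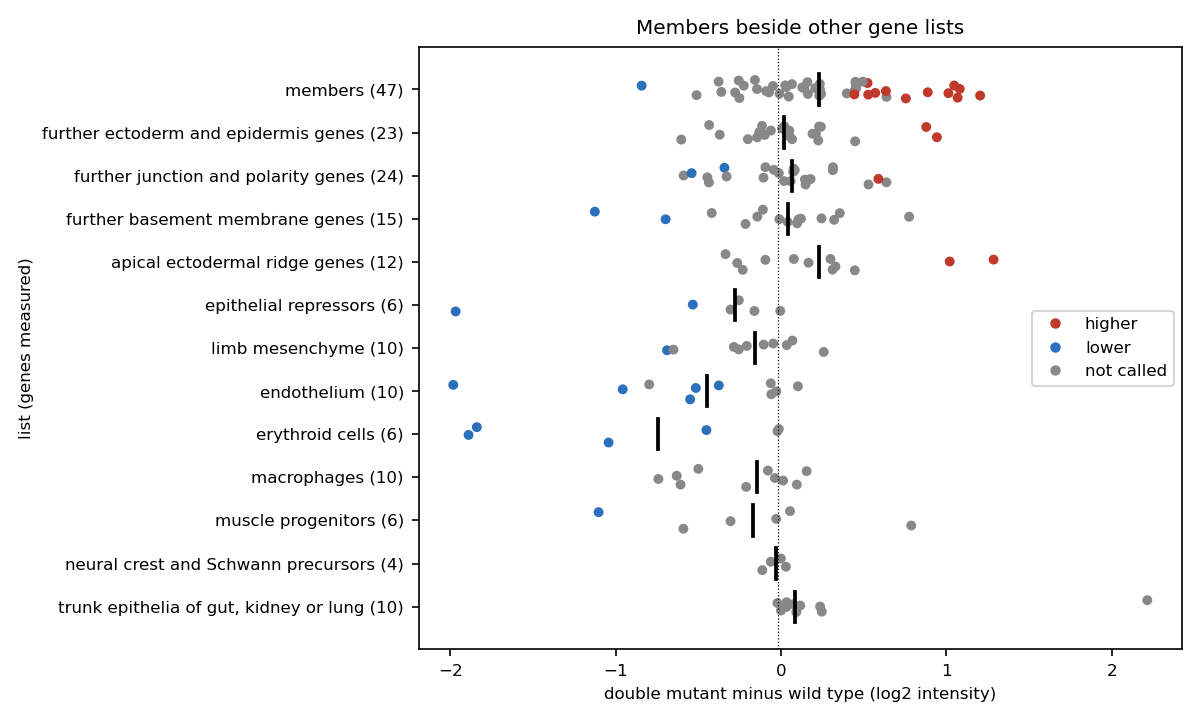
Log2 difference of every measured gene in the 47-gene list, the 5 further lists and 7 lists of markers for other cell types, on the brightest probe set; black bars are list medians and the dotted line the median of all genes (−0.02). The 47 genes have a median of 0.23, and the endothelial (−0.45) and erythroid (−0.75) lists lie lowest.

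On their brightest probe sets, no marker in the lists for other cell types was called higher. In the limb mesenchyme list 0 of 10 rose and 1 fell (10.0%, against 8.14% of all genes), with a median of −0.16. Their summed intensities were 35105 to 41070 in double mutants and 41890 to 44192 in wild type. The gene that fell was Vim, or vimentin, by 0.69 ± 0.06 (adjusted p = 0.00876). Among 15 other probe sets of the mesenchyme genes 0 were called higher and 5 lower. Over all genes 8.66% of such probe sets were called higher and 15.0% lower. The 5 were for Prrx1 (−2.64 and −1.16), Pdgfra (−2.51), Col1a1 (−1.93) and Vim (−0.51). Levels of the mesenchyme genes are therefore not settled by their brightest probe sets. None of 10 macrophage markers was called (median −0.15, sums of 1071 to 1349 and 1447 to 1624). Of 6 muscle progenitor markers Myod1 alone (16.7%) was called on its brightest probe set, lower by 1.10 (sums of 1195 to 1360 and 1528 to 1682). Among 6 other probe sets of the muscle genes 0 were called higher and 2 lower, for Met (−2.88) and Lbx1 (−0.75). The 4 measured neural crest markers showed no call (median −0.03, sums of 669 to 891 and 695 to 846). Markers of gut, kidney or lung epithelium gave 0 calls of 10, and 7 of 10 lay below the median level of tested probe sets, among them Cdx2, Foxa1, Foxa2 and Nkx2-1. Their summed intensity was 383 to 615 in double mutants and 291 to 338 in wild type. Afp, a yolk sac and liver gene, had the largest difference of that list, at 8.29 and 6.04 in double mutants and 5.78, 4.66 and 4.40 in wild type (2.22 ± 0.84, adjusted p = 0.161). The part of these cells in the epithelial values was not tested.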

How the data were processed

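RNA of 2 double mutant and 3 wild type mouse forelimb samples was labelled in 2 cycles for Affymetrix arrays, per the labels' protocols. The deposited values are linear intensities, with 1 value for a probe set in an array. RMA and limma are the tools in the submitters' processing notes, and further settings are not given in the sources used here. Intensities were not normalized again. After leaving out 64 control probe sets, log2 intensities of 45037 probe sets were fitted with limma 3.58.1 in R 4.3.3 (1 mean per genotype, no covariate, eBayes without trend, 3 residual and 1.29 prior degrees of freedom), with Benjamini-Hochberg adjustment over all of them and calls at an adjusted p under 0.05. Platform annotation gave 1 symbol to 34945 probe sets, several to 932 and none to 9160; the gene identifiers of 34741 matched the GRCm38.p6 gene table. The limma fit was tested on simulated data. The number of arrays limits the precision, and p-values measure the spread between these samples.

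The 47 genes and all lists were chosen with earlier results of these data known. Every member was named, those called array by array, and from other lists up to 4 called genes with the smallest p. Promoters were printed for members called higher with an entry in the table. Alternatives were other scalings, a filter on dim probe sets, a pseudocount of 16, another variance model, a replicate block, a covariate, other probe sets per gene and each array left out.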

Additional observations from a re-analysis of the deposited data

Results flagged for a closer look

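The spike-in Dap, which comes from no mouse gene and enters no comparison, was flagged because its signal in double mutant arrays (mean log2 intensity 7.09, with 6.90 and 7.28 in the arrays) stood above that in wild type arrays (3.30). No group had enough arrays for a check of outlying samples, and the design has a single contrast.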

How the results depend on the processing

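On their brightest probe sets, the 13 called genes kept their directions under all 12 alternative fits. Groups of arrays did not overlap in these genes, so that leaving out an array could not reverse a direction. Other probe sets of Trp63, Dsc2, Dsg2 and Esrp2 were called lower, against the direction of the brightest. The calls depended on the arrays. With 1 array left out, the array-wide count of 8206 called probe sets lay between 0 and 5108, the members called higher between 0 and 8, and those called lower between 0 and 2. With a replicate block the counts were 2351 probe sets, and 0 members higher and 0 lower (16 and 1 at a limma unadjusted p under 0.05). These 16 and 1 were 34.0% and 2.13% of the members, against 10.2% and 10.5% of all genes. Deviations of same-numbered arrays correlated at 0.089 and 0.12, and the labels give the numbers no shared origin. With the 3′ minus 5′ covariate 0 probe sets and 0 members in either direction were called. At a limma unadjusted p under 0.05 there were 9633 probe sets, and 9 higher and 3 lower members. These were 19.1% and 6.38% of the members, against 5.96% and 12.1% of all genes. Quantile normalization gave 12 members higher and 2 lower, and equal array medians 9 higher and 1 lower. By the second brightest probe set of 21 genes there were 1 higher and 3 lower, with a median of 0.012. The mean over all probe sets of a gene gave 9 higher, 2 lower and a median of 0.036. Without probe sets of s, x or a endings 11 of 37 members were higher and 0 lower, with a median of 0.16. With equal array medians the higher calls of Trp63, Pkp1 and Ap1m2 were lost. Ovol1, Ovol2, Ehf, Marveld3 and Lamb3 lay below the median level of tested probe sets, and how small a change they could show was not tested.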
